A study of Zea mays with 15 samples.

Results

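Both maize genes known for the thiazole step of thiamine synthesis, thi1 (listed as LOC542714, synonym thi1-1) and thi1-2 (listed as LOC542715, synonym thi2), gave higher signals in the internode meristem 24 and 48 h after either spray than before spraying. Each is read by 1 probe set, a set of short oligonucleotide probes for 1 transcript. They are 2 of 17621 probe sets other than controls, and both were among the 10573 probe sets with enough mean signal to enter the fit. These genes were picked for their rise from 0 h in the water arrays, so that rise is given below as a description and is not tested. The ethephon arrays were not used in that choice.

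Maize seedlings with 8 leaves, grown in 1 greenhouse, were sprayed with 600 mg/L ethephon, a compound that releases ethylene inside the plant, or with water as the control, 100 seedlings each. The meristem of the seventh internode was collected from unsprayed plants at 0 h (untreated group) and from both sprayed groups at 24 h and 48 h. Each RNA pooled 3 seedlings, and 3 RNAs per group were hybridised to 1 Affymetrix maize array each, 15 arrays in 5 groups. No genotype is given in the labels. Unsprayed plants of 24 h and 48 h are not among the groups, so spraying and the passage of time since 0 h cannot be told apart.

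Thiamine, vitamin B1, is built in plants from a thiazole and a pyrimidine that are made separately in the plastid and then joined. The thiazole synthase of the THI1/THI4 family makes the thiazole from NAD, glycine and a sulfur atom. In Arabidopsis and yeast the sulfur comes from a cysteine of the enzyme itself, so that each protein molecule works once, which makes this step costly. The product, thiamine diphosphate, is the cofactor of pyruvate dehydrogenase, pyruvate decarboxylase, transketolase and other enzymes of central carbon metabolism. The maize genes thi1 and thi1-2 encode closely related copies of this synthase. Cross-hybridisation between them was not tested, since probe sequences were not used here.

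Arrays were alike in overall level, with medians of 297.8 to 370.4. RNA quality differed more. An index of RNA integrity, the 3'/5' index, is the log2 ratio of the signals at the 3' and 5' ends, averaged over 5 control transcripts. A higher value means more 3' bias, which is read as less intact RNA. The index was 1.67 ± 0.77 in untreated arrays (SD, n = 3), with 0.783 on the second of them and 2.03 and 2.19 on the others. Water arrays had an index of 2.86 ± 0.30 at 24 h and 2.06 ± 0.36 at 48 h, and ethephon arrays had 2.97 ± 0.16 and 2.71 ± 0.07. All arrays of water at 24 h (from 2.52), ethephon at 24 h (from 2.83) and ethephon at 48 h (from 2.66) lay above all untreated arrays. In those groups the index and the sprayed state cannot be told apart. The second untreated array stood apart, with the lowest index and so the least 3' bias of the 15. The thi differences from untreated are also given without it. So are the relations of the thi genes within groups to each other, to the index and to photosynthesis transcripts. Most other results that use the untreated arrays are not. The meristem gene kn1 read 2524 to 4257 on all 15 arrays. Of the dividing-cell genes, cdc2 read 1704 to 2690, whereas pcna2 ran from 303 to 3044, both at 48 h of ethephon. Of 8 fitted genes of meristem and dividing cells, 5 lay higher and 3 lower than untreated at 24 h of water. The D-type cyclin gene cycd2 alone passed (log2 -0.69 ± 0.13, limma adjusted p = 0.0213), where 1.72% of all probe sets were called. Between ethephon and water 6 of the 8 lay lower at 24 h (median -0.31) and 5 at 48 h (median -0.07). At either time 0 passed, where 0% of all probe sets were called. Of 10 matched photosynthesis genes 8 had enough signal for the fit. The Rubisco small subunit gene ssu1 read 4198 to 11442, and the C4 enzyme genes ppdk1 and mdh6 had group means of 549.7 to 917 and 803.6 to 1139, whereas those of the C4 enzyme genes pep1 and me1, 74.2 to 124.6, lay below the 218.3 needed. Transcripts of photosynthesis were thus present beside those of the meristem.

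On the untreated arrays the thi1 signal, in linear MAS5 units, was 299.2, 1185 and 212.7. After water it was 1867, 4102 and 4666 at 24 h, and 4950, 3462 and 5626 at 48 h. After ethephon it was 2673, 4194 and 2924 at 24 h, and 3818, 2810 and 3206 at 48 h. All 12 sprayed arrays lay above all 3 untreated arrays, and the sprayed groups overlapped one another in every pair. In ascending order of their means the groups were untreated (566 ± 538), ethephon at 24 h (3264 ± 816), ethephon at 48 h (3278 ± 508), water at 24 h (3545 ± 1480) and water at 48 h (4679 ± 1107), each SD with n = 3. From ethephon at 24 h upward, no group's arrays were separated from those of its neighbour in this order.

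On the untreated arrays the thi1-2 signal was 1950, 6092 and 2793. After water it was 8033, 11830 and 11757 at 24 h, and 13436, 11070 and 13391 at 48 h. After ethephon it was 7194, 8923 and 8002 at 24 h, and 10925, 9500 and 10682 at 48 h. Again all 12 sprayed arrays lay above all 3 untreated arrays. The order of the group means was that of thi1: untreated (3612 ± 2189), ethephon at 24 h (8040 ± 865), ethephon at 48 h (10369 ± 762), water at 24 h (10540 ± 2171) and water at 48 h (12632 ± 1353). The ethephon arrays of 48 h lay above those of 24 h and below the water arrays of 48 h without overlap, whereas they overlapped the water arrays of 24 h, which in turn overlapped those of 48 h. The coefficient of variation, the SD as a share of the mean, was largest before spraying for both genes: 95.1% for thi1 and 60.6% for thi1-2. It was smallest with ethephon at 48 h, at 15.5% and 7.35%.

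**Figure D1:**
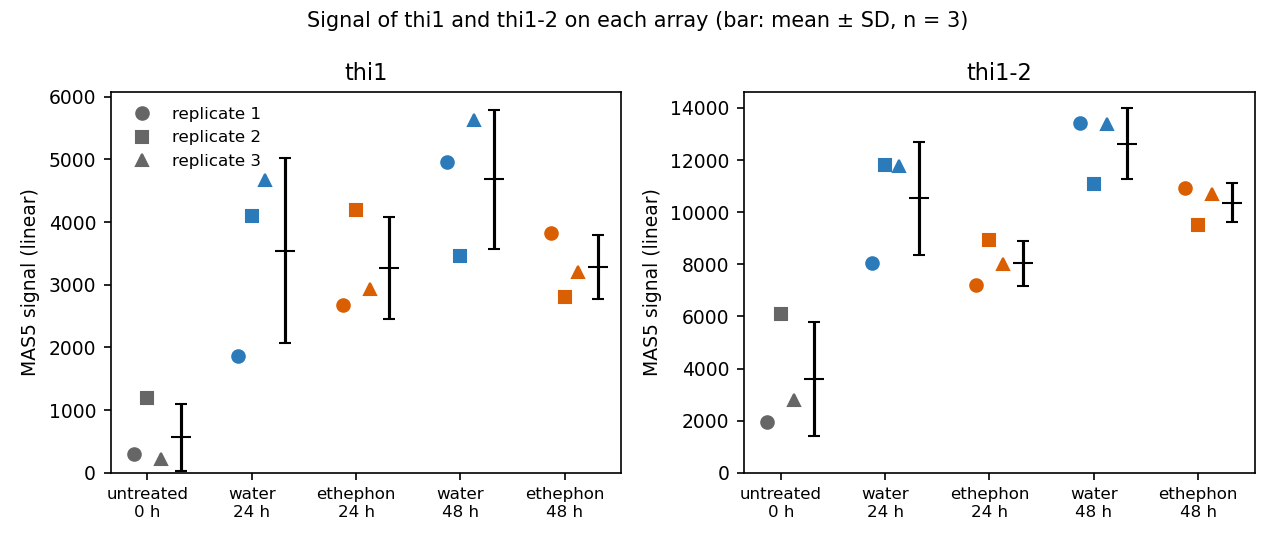
Linear MAS5 signal (y axis) of thi1 (left) and thi1-2 (right) on each of the 15 arrays, by group (x axis); symbols mark the replicate, and the black bar beside each group is its mean ± SD (n = 3). All 12 sprayed arrays lie above the 3 untreated arrays, of which replicate 2 is the highest for both genes.

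Relative to the untreated arrays, and in log2 units with the standard error of the limma fit, thi1 lay higher by 2.96 ± 0.53 with water and 2.92 ± 0.53 with ethephon at 24 h. At 48 h these differences were 3.44 ± 0.53 with water and 2.94 ± 0.53 with ethephon. As folds they were 7.80 and 7.58 at 24 h, and 10.9 and 7.70 at 48 h. For thi1-2 the log2 differences after water were 1.69 ± 0.31 at 24 h and 1.97 ± 0.31 at 48 h (folds of 3.23 and 3.92), and after ethephon 1.32 ± 0.31 and 1.69 ± 0.31 (folds of 2.49 and 3.22). These comparisons share the untreated arrays with the rule that picked the genes and with each other, so they are a description. Groups that did not overlap, with the sprayed arrays higher, were found after water for 12.6% of all probe sets at 24 h and 7.05% at 48 h, and after ethephon for 14.2% and 10.2%. In a bulk tissue sample, more cells that express a gene and more RNA per cell cannot be told apart.

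The size of the rise depended on the second untreated array and on the 3'/5' index. Without that array, thi1 lay higher than the untreated arrays by log2 3.71 and 4.18 at 24 and 48 h of water, and by 3.67 and 3.69 at 24 and 48 h of ethephon. For thi1-2 the values without it were 2.15 and 2.43 for water, and 1.78 and 2.15 for ethephon. When the index entered the fit as a covariate, the log2 rise of thi1 was 4.21 and 3.85 at 24 and 48 h of water, and 4.28 and 4.03 at 24 and 48 h of ethephon. That of thi1-2 was 2.47 and 2.22 for water, and 2.16 and 2.37 for ethephon. The slope of the covariate comes from deviations within groups, where the negative relation of both genes to the index rested on the second untreated array. Of the untreated thi1 signals, that of replicate 3 lay below the 218.3 needed to enter the fit, so the thi1 fold is uncertain. With an offset of 32 added before log2, the log2 difference of thi1 from untreated at 24 h was 2.85 after water and 2.81 after ethephon. At the other end, thi1-2 reached 13436 on an array scale whose highest value was 22867, and probe saturation was not tested.

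Ethephon against water at the same time asks whether the ethylene releaser altered these transcripts beyond what followed a water spray. At 24 h the thi1 difference was log2 -0.04 ± 0.53 (ratio of ethephon to water 0.972, 95% interval 0.441 to 2.14; limma adjusted p = 0.974). For thi1-2 it was -0.37 ± 0.31 (ratio 0.772, interval 0.486 to 1.23; limma adjusted p = 0.633). At 48 h the thi1 difference was -0.50 ± 0.53 (ratio 0.709, interval 0.322 to 1.56; limma adjusted p = 0.994) and that of thi1-2 was -0.28 ± 0.31 (ratio 0.823, interval 0.518 to 1.31; limma adjusted p = 0.994). All 4 estimates lay below 0 and none passed the threshold of 0.05. In this fit the intervals are wide for thi1, from less than 0.5 to more than 1.5 times the water level at either time, and narrower for thi1-2. Their width pools the spread of all 5 groups, which was largest in the untreated arrays (log2 SD 1.31 for thi1 and 0.84 for thi1-2). With only the groups compared, the standard errors of thi1 and thi1-2 were 0.37 and 0.17 at 24 h, and 0.22 and 0.11 at 48 h. Neither gene passed in those fits either (limma adjusted p = 0.965 and 0.478 at 24 h, 0.9996 for both at 48 h). At 48 h the 3 ethephon arrays of thi1-2 lay below the 3 water arrays, as for 3.9% of all probe sets. The water arrays are those for whose high values the genes were picked, so these tests are not independent of the choice, which works toward lower ethephon values.

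Over all probe sets, limma called 0 of 10573 between ethephon and water at 24 h (0%), with 951 at an unadjusted p under 0.05, and 0 at 48 h (0%), with 343. With array weights the fit called 169 at 24 h and 0 at 48 h, and thi1 (adjusted p = 0.926) and thi1-2 (adjusted p = 0.238, log2 -0.40) were not among those of 24 h. The ethephon and water groups of 48 h also differed in the 3'/5' index, without overlap. With that index as a covariate the 48 h differences were log2 0.19 for thi1 and 0.14 for thi1-2 (limma adjusted p = 0.997 for both). These values lay on the other side of 0. The slope of the covariate comes from deviations within groups, so it rested largely on the second untreated array, which is in neither group compared. Within groups the index correlated with thi1 and thi1-2 at r = -0.6 and -0.639, and at 0.241 and 0.279 without that array.

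**Figure D2:**
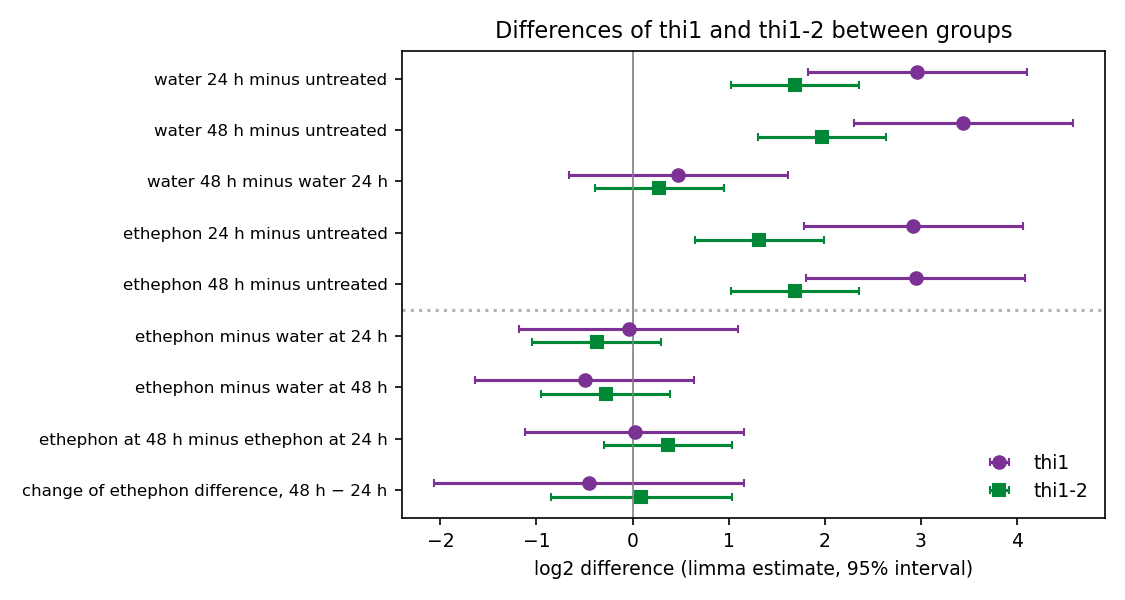
Log2 differences between groups (x axis) for thi1 (circles) and thi1-2 (squares), with 95% intervals from the limma fit to 15 arrays; comparisons above the dotted line rest on untreated or water arrays that the choice of genes used and are a description. Intervals of the 4 comparisons with the untreated arrays lie above 0, and those of the comparisons among sprayed groups include 0. All intervals use a spread pooled over the 5 groups, the untreated arrays included.

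The ethephon arrays of 48 h and 24 h form the comparison that uses no array of the rule. The thi1 difference was log2 0.02 ± 0.53 (ratio of 48 h to 24 h 1.02, 95% interval 0.461 to 2.24; limma adjusted p = 0.997). For thi1-2 it was 0.37 ± 0.31 (ratio 1.29, interval 0.813 to 2.05; limma adjusted p = 0.988), and its 3 arrays of 48 h lay above the 3 of 24 h, as for 3.91% of all probe sets. Neither gene passed, and limma called 0 of all probe sets (0%), with 365 at an unadjusted p under 0.05. With only these groups fitted, the standard errors were 0.22 for thi1 and 0.12 for thi1-2 (limma adjusted p = 0.9965 and 0.9933). In the water arrays, where both times belong to the rule, the difference from 24 h to 48 h was 0.48 ± 0.53 for thi1 and 0.28 ± 0.31 for thi1-2. The change of the ethephon difference from 24 h to 48 h was log2 -0.45 ± 0.74 for thi1 and 0.09 ± 0.44 for thi1-2 (limma adjusted p = 1.00 for both), with 0 calls over all probe sets (0%) and 98 at an unadjusted p under 0.05.

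The log2 ratio of thi1 over thi1-2 within an array shows whether the genes changed unequally, without setting the level of one probe set against the other. It was -2.93 ± 0.70 before spraying (SD, n = 3), -1.66 ± 0.40 and -1.46 ± 0.21 at 24 and 48 h of water, and -1.32 ± 0.20 and -1.67 ± 0.13 at 24 and 48 h of ethephon. The sprayed arrays, from -2.11 to -1.09, all lay above the untreated arrays, from -3.72 to -2.36, so thi1 lay higher than untreated by a larger fold than thi1-2, which is a description because the untreated and water arrays chose the genes. Among sprayed groups the ratio was higher with ethephon than with water by 0.33 at 24 h (two-sided exact permutation p = 0.4, adjusted p = 0.4 over 3 comparisons). It was lower by 0.21 at 48 h, a difference of -0.21 (exact permutation p = 0.2, adjusted p = 0.3). From 24 h to 48 h of ethephon the difference was -0.35 (exact permutation p = 0.1, adjusted p = 0.3), with all 3 arrays of 48 h below those of 24 h. The smallest p that 3 against 3 arrays can give is 0.1, so none of these comparisons could pass.

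The 2 genes also varied together from array to array inside the groups, which the choice of genes did not use. Deviations of log2 signal from the group mean correlated with Pearson's r = 0.89 and Spearman's rho = 0.964 over 15 arrays (two-sided exact permutation of arrays within groups, 7776 arrangements, p = 0.028 and p = 0.00386; adjusted over 5 relations 0.0701 and 0.0193). The r value thus missed the threshold after adjustment, whereas rho passed it. Without the arrays farthest from the median of thi1, untreated replicates 2 and 3, r was 0.973 (exact permutation p = 0.00309). Without untreated replicate 2 alone r was 0.648 (exact permutation p = 0.0934), without water replicate 1 of 24 h it was 0.877 (p = 0.0841, exact permutation), and without water replicate 2 of 48 h 0.887 (p = 0.0509, exact permutation). The largest deviations were those of the second untreated array, 1.49 for thi1 and 0.92 for thi1-2. Among sprayed arrays the largest were -0.82 and -0.37, on the first water array of 24 h. In each of the 4 sprayed groups the array with the lowest thi1 signal also had the lowest thi1-2 signal. Where this correlation lies among those of other pairs of probe sets was not tested. Cross-hybridisation between the 2 copies was not tested either.

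**Figure D3:**
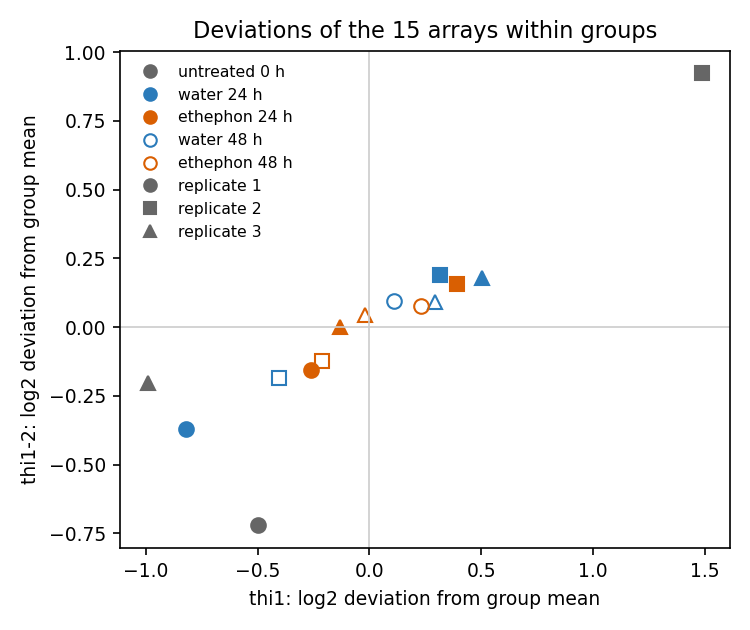
Deviation of each of the 15 arrays from its group mean in log2 signal, for thi1 (x axis) and thi1-2 (y axis); colours and fills mark groups and symbols mark replicates. The points run along a rising line (r = 0.89), with the second untreated array at the upper right end.

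The 3'/5' index and transcripts of photosynthesis were set beside these deviations. The index correlated within groups at r = -0.6 and rho = -0.225 with thi1 (exact permutation p = 0.293 and 0.549) and at r = -0.639 and rho = -0.286 with thi1-2 (exact permutation p = 0.342 and 0.467). The adjusted values over 5 relations were 0.342 and 0.549 for both genes, and without the 2 arrays farthest from the median of the index r was -0.024 for thi1 and 0.075 for thi1-2. Leaving out the second untreated array alone turned r to 0.241 for thi1 and 0.279 for thi1-2 (exact permutation p = 0.619 and 0.486), so the negative values rested on that array.

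The summed signal of 10 photosynthesis genes was 19406, 31970 and 15504 on the untreated arrays, 16913 to 18918 and 15836 to 25284 at 24 and 48 h of water, and 14602 to 24080 and 15023 to 20459 at 24 and 48 h of ethephon. The sum overlapped between the untreated arrays and each sprayed group, with or without the second untreated array. It is weighted toward its brightest genes, ssu1 and psan (mean signals 7059.5 and 6152.3), and says little of the weaker ones. Within groups its log2 correlated with thi1 at r = 0.767 and rho = 0.732 (exact permutation p = 0.00604 and 0.0081, adjusted 0.0302 and 0.0203), and with thi1-2 at r = 0.634 and rho = 0.657 (exact permutation p = 0.115 and 0.0225, adjusted 0.191 and 0.0375). Without the 2 arrays farthest from the median of the sum, untreated replicate 2 and ethephon replicate 2 of 24 h, r was 0.427 for thi1 (exact permutation p = 0.133) and 0.024 for thi1-2 (exact permutation p = 0.941). Without untreated replicate 2 alone it was 0.537 for thi1 (exact permutation p = 0.0343) and 0.192 for thi1-2 (exact permutation p = 0.495). The relation of thi1-2 thus rested on that array, whereas that of thi1 was lower without it and missed 0.05 without both arrays. This relation was examined after the values had been seen. The part of photosynthetic cells in the spread of the thi signals was not tested.

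**Figure D4:**
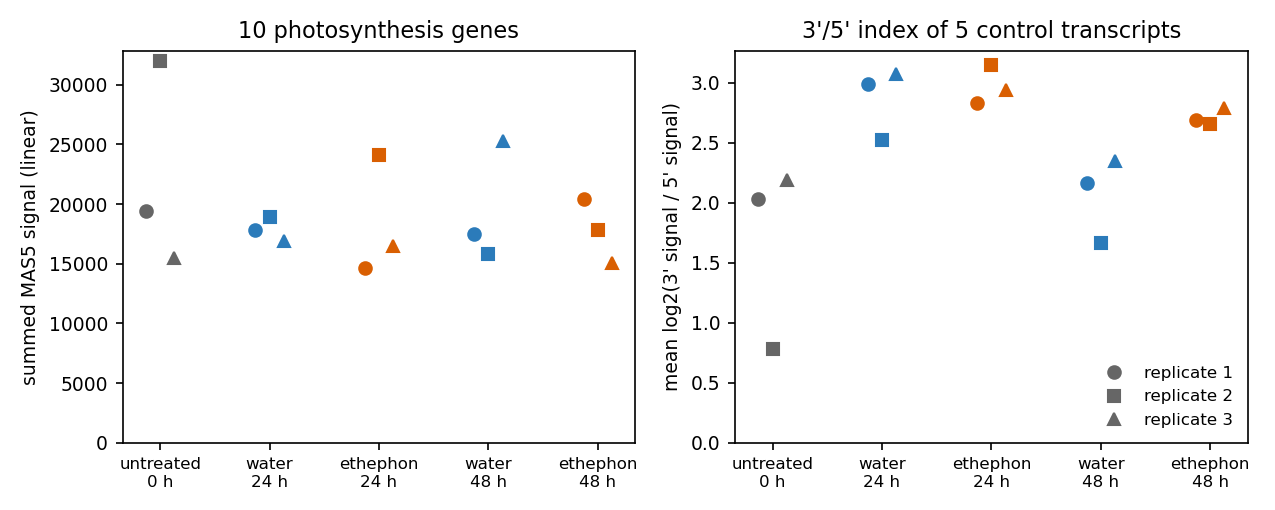
Summed linear MAS5 signal of 10 photosynthesis genes (left) and 3'/5' index of 5 control transcripts (right) on each of the 15 arrays, by group (x axis); symbols mark the replicate. The second untreated array has the highest sum, 31970, and the lowest index, 0.783. The sums of each sprayed group overlap those of the untreated arrays, with or without that array.

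Of 760 other named genes with enough signal, those whose log2 signal over the 15 arrays was most like the mean standardized signal of thi1 and thi1-2 were tha9 (r = 0.888), the glutathione transferase gene gst6 (0.839) and rnc1 (0.811), a chloroplast intron splicing factor gene. Next came GRP (0.787), the protein disulfide isomerase gene pdi (0.771) and tha4 (0.757, listed as TATA), whose product belongs to the twin-arginine protein import system of the thylakoid. The values are descriptions of 15 arrays that share their groups, and over the 5 group means alone r was 0.974 for tha9, 0.981 for gst6 and 0.956 for rnc1. Within groups the correlations were lower for tha9 (0.347), rnc1 (0.121) and tha4 (0.456), were 0.629 for gst6 and 0.606 for pdi, and ran the other way for GRP (-0.411). The signal of tha9 was 403 ± 81.5 untreated, 1369 ± 128 and 1001 ± 231 with water and ethephon at 24 h, and 1193 ± 91.2 and 1135 ± 110 at 48 h (SD, n = 3). It was lowest before spraying, like both thi genes, which follows from the likeness that picked it. It was highest with water at 24 h, whereas both thi genes were highest with water at 48 h. Its ethephon differences from water were log2 -0.47 ± 0.20 at 24 h and -0.07 ± 0.20 at 48 h.

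The most opposite gene was hsp101, a ClpB-type heat shock chaperone gene (r = -0.946 over the 15 arrays, -0.71 within groups). Its signal was 3331 ± 1153 untreated, 681 ± 164 and 430 ± 130 at 24 and 48 h of water, and 835 ± 90.5 and 739 ± 252 at 24 and 48 h of ethephon (SD, n = 3). The group order of hsp101 was lowest with water at 48 h, where both thi genes were highest, and highest before spraying, where both were lowest. The lethal leaf spot gene lls1, which encodes an oxygenase of chlorophyll breakdown (r = -0.843), and the derlin gene DER1.1 of the endoplasmic reticulum (r = -0.84) followed.

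**Figure D5:**
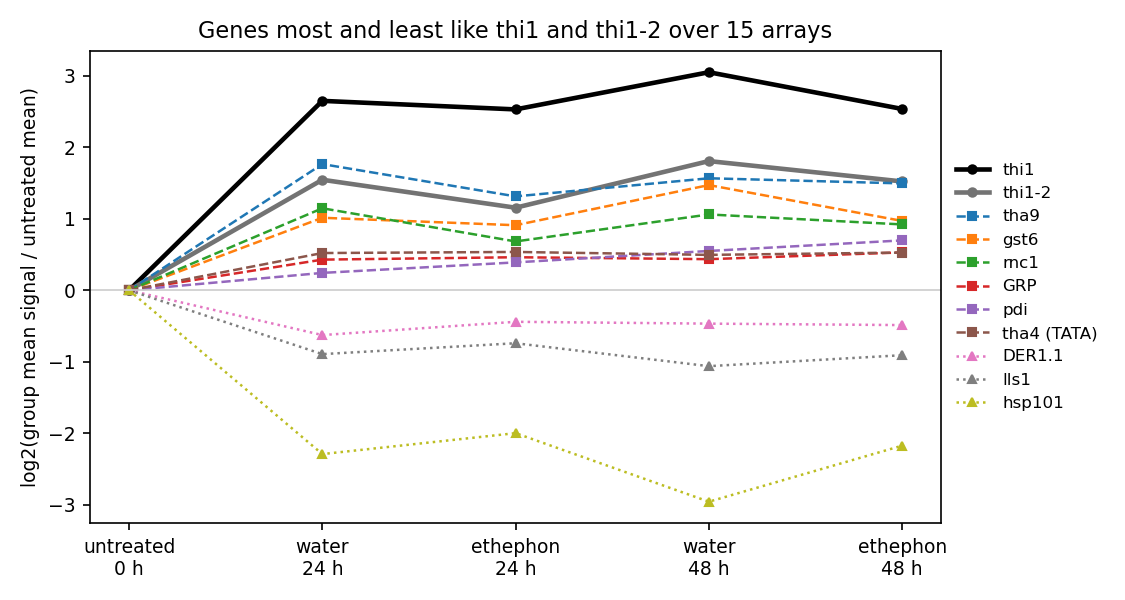
Log2 of each group's mean signal over the untreated mean (y axis) for thi1 and thi1-2 (solid lines), the 6 named genes most like them (dashed) and the 3 least like them (dotted) by group (x axis); lines only join the points of a gene. Both thi genes and tha9 rise most, and hsp101 falls most.

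Of 11 matched genes of plastid biogenesis 6 entered the fit. Among them were tha9, rnc1 and tha4, which the likeness above had already picked for a pattern set largely by the untreated arrays, so their own rise adds nothing to it and is not tested. The other fitted genes lay above untreated at 24 h of water. The log2 difference was 0.84 ± 0.32 for caf1, a chloroplast splicing factor gene (limma adjusted p = 0.19). It was 0.16 ± 0.18 for hcf106 of the thylakoid import system and 0.14 ± 0.16 for csy1 (limma adjusted p = 0.647 and 0.644). Of these 0 passed, where 1.72% of all probe sets were called. Between ethephon and water 4 of the 6 lay lower at 24 h (median -0.43) and 5 of 6 at 48 h (median -0.12). At either time 0 passed, where 0% of all probe sets were called. The likeness used the ethephon arrays too, so for tha9, rnc1 and tha4 these directions are not independent of it. For caf1, hcf106 and csy1 the differences were 0.27 ± 0.32, -0.43 ± 0.18 and -0.43 ± 0.16 at 24 h. At 48 h they were -0.08 ± 0.32, -0.47 ± 0.18 and -0.39 ± 0.16. Of the 8 fitted photosynthesis genes 6 lay lower with water than untreated at 24 h and 7 at 48 h. Their medians were -0.25 and -0.05, beside 0.05 and 0.03 for all probe sets. None passed, where 1.72% and 0.794% of all probe sets were called. These directions are not given without the second untreated array, whose summed photosynthesis signal was the highest (31970, against 19406 and 15504). Untreated ssu1 ran from 5933 to 11442 and overlapped the 5918 to 7115 with water at 24 h. The examples with the highest signal were ssu1 (-0.24 ± 0.33 at 24 h), the photosystem I genes psan (-0.12 ± 0.24) and psad1 (-0.65 ± 0.43), and the ferredoxin reductase gene fnr1 (0.05 ± 0.26).

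Of the listed thiamine synthesis symbols, which included those of the pyrimidine synthase THIC, the joining enzyme TH1 and thiamine diphosphokinase, only thi1 and thi1-2 were matched to a named probe set. Of 5 matched genes whose enzymes use thiamine diphosphate, 3 entered the fit. Pyruvate decarboxylase pdc3 lay at log2 0.45 ± 0.32 with water against untreated at 24 h (limma adjusted p = 0.457), the pyruvate dehydrogenase E1 beta gene pdh2 at -0.44 ± 0.15 (0.137) and the deoxyxylulose phosphate synthase gene dxs1 at -1.05 ± 0.49 (0.273). None of them passed at 48 h of water either, where they lay at 0.42, -0.19 and -1.57. Their median was -0.44 at 24 h and -0.19 at 48 h.

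Pyruvate decarboxylase pdc3 was higher with ethephon than untreated at 24 h, by log2 1.32 ± 0.32 (limma adjusted p = 0.0351), where 5.54% of all probe sets were called. At 48 h the same difference of 1.32 missed the threshold (limma adjusted p = 0.0734), where 1.36% were called. It read 6497 ± 458 with ethephon and 3738 ± 1515 with water at 24 h, and 6502 ± 369 and 3672 ± 1520 at 48 h (SD, n = 3), log2 differences of 0.87 ± 0.32 and 0.90 ± 0.32 (limma adjusted p = 0.545 and 0.994). The ethephon arrays lay above all water arrays at both times, as for 7.05% of all probe sets at 24 h and 5.14% at 48 h. The genes pdh2 and dxs1 lay at -0.06 ± 0.15 and 0.62 ± 0.49 at 24 h, and at 0.18 ± 0.15 and 0.42 ± 0.49 at 48 h. Weak signals kept the decarboxylase genes pdc1 and pdc2 out of the fit, with group means of 111.3 to 160.1 and 80.5 to 125.1.

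Genes listed for the sulfur and iron that thiazole synthesis draws on were few. Sulfite reductase, sir, a gene of sulfur assimilation, read 1565 ± 779 untreated, 2407 ± 450 and 2610 ± 732 at 24 and 48 h of water, and 2387 ± 149 and 2685 ± 200 at 24 and 48 h of ethephon (SD, n = 3). Its differences from untreated with water were log2 0.71 ± 0.29 at 24 h and 0.81 ± 0.29 at 48 h (limma adjusted p = 0.207 and 0.336), and ethephon and water differed by 0.00 ± 0.29 and 0.08 ± 0.29. The ferritin genes fer1 and fer2, which encode iron storage proteins, lay at 0.20 ± 0.19 and 0.68 ± 0.29 with water at 24 h (limma adjusted p = 0.573 and 0.236) and at 0.36 ± 0.19 and 0.38 ± 0.29 between ethephon and water at 24 h (0.563 and 0.618). Over all 8 fitted genes of these lists of substrates, sulfur, iron and cofactor use, 0 passed limma in the comparisons of water with untreated and of ethephon with water at either time, or of ethephon at 48 h with 24 h. Over all probe sets limma called 1.72% and 0.794% at 24 and 48 h of water against untreated, and 0% in the others. With ethephon against untreated 1 of the 8 passed at 24 h, pdc3, beside 5.54% of all probe sets, and 0 at 48 h, beside 1.36%.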

How the data were processed

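RNA of the internode meristem was measured on 15 Affymetrix maize arrays. The deposited values were linear MAS5 signal intensities of 17734 probe sets (113 of them controls), per the submitters' processing notes. For MAS5, the version and scaling target are not given in the sources used here. All 15 columns were used, and 0 were left out. No offset was added before log2, and probe sets with a mean at or above the 40th percentile (218.3) were kept. The number of arrays limits the precision. The labels call the 3 samples of a group biological replicates, each a pool of 3 seedlings, so p-values speak of the spread between such pools within 1 greenhouse.

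Differences came from limma 3.58.1 (R 4.3.3), with 1 mean for each of 5 groups (10 residual degrees of freedom, moderated along the mean signal), with Benjamini-Hochberg adjustment over 10573 probe sets and a threshold of 0.05. Exact permutation tests were two-sided. The fit was tested on simulated data. Alternatives were an offset, no filter, quantile and median scaling, array weights, no trend, the index as a covariate, the replicate block, only the groups compared, and each array left out. Tables were joined and figures drawn with Python 3.11.15, pandas 2.3.3 and matplotlib 3.10.9.

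Names came from the platform annotation and from RefSeq symbols and synonyms (assembly Zm-B73-REFERENCE-NAM-5.0), without coordinates: 1452 probe sets had 1 gene, 1 had several, and 16169 had no single name. Of the 1452, 1377 matched RefSeq. A gene with several probe sets was read from its brightest on average. Among list matches 5 probe sets were dropped because their symbol stood for another gene. The members and lists were chosen with earlier results of these data known. Named genes were the members, the 6 most and 3 least correlated named genes, and list members by highest signal or passing. Outside that rule, pep1, me1, ppdk1, mdh6, pdc1, pdc2, caf1, hcf106 and csy1 were named after their values were seen.

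Replicate numbers are shared by the groups. Same-numbered arrays deviated together in only some pairs (correlations -0.543 to 0.633 over 30 pairs, above 0.1 in 10), so the numbers were not taken to pair the arrays.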

Additional observations from a re-analysis of the deposited data

How the results depend on the processing

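Differences are log2 values, and each alternative changed 1 choice. No alternative brought thi1 or thi1-2 past the threshold between ethephon and water, between the ethephon times or in the change of the ethephon difference. Adjusted p over the 9 alternatives to the fit ran from 0.238 for thi1-2 at 24 h to 1.00. Adding the 3'/5' index as covariate put thi1 above untreated by 4.21 with water at 24 h, 4.28 with ethephon at 24 h and 4.03 with ethephon at 48 h, and thi1-2 by 2.47, 2.16 and 2.37. The same covariate turned the sign of small differences: for thi1 to 0.073 between ethephon and water at 24 h, 0.19 at 48 h, 0.11 for the change between them, -0.25 between the ethephon times and -0.36 between the water times, and for thi1-2 to 0.14 between ethephon and water at 48 h and -0.24 between the water times. Array weights gave thi1-2 differences from untreated of 2.18 and 2.37 at 24 and 48 h of water and of 1.78 at 24 h of ethephon, and turned the thi1 difference between the ethephon times to -0.29, as centring on the array median did to -0.011. The negative slope of the index within groups rested on the second untreated array, which lies outside the comparisons of sprayed groups. The cause of these shifts was not tested.

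With 1 array left out, the thi1 differences from untreated ran from 2.47 to 3.71 (water, 24 h), 2.95 to 4.18 (water, 48 h), 2.43 to 3.67 (ethephon, 24 h) and 2.45 to 3.69 (ethephon, 48 h). Those of thi1-2 ran from 1.33 to 2.15, 1.61 to 2.43, 0.96 to 1.78 and 1.33 to 2.15. In each of these 8 ranges the upper end came without untreated replicate 2. For thi1, ethephon against water at 24 h ran from -0.45 to 0.21 and the ethephon times from -0.11 to 0.22, and for thi1-2 the change of the ethephon difference ran from -0.0026 to 0.28. The within-group correlation of the genes ran from 0.648 to 0.991. Among the other genes of thiamine synthesis and use, 0 to 1 were called at 24 h and at 48 h of water: pdh2 (-0.61) without untreated replicate 1 at 24 h, and sir (1.09 and 1.19) without untreated replicate 3 at both times. The replicate block left every difference as it was (thi1 -0.04 and thi1-2 -0.37 between ethephon and water at 24 h, adjusted p = 0.975 and 0.651) and changed no call. Of 15 arrays 4 correlated best with arrays of their own number.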
